A study of Mus musculus with 19 samples.

Results

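The 26S proteasome genes that every cell uses were followed in mouse natural killer (NK) cells given interleukin-2 (IL-2) with or without inhibitors of the kinases JAK1 and JAK3. Members were all genes whose symbol begins with Psma, Psmb, Psmc or Psmd and a digit, without the immunoproteasome genes Psmb8, Psmb9 and Psmb10 and without pseudogenes. This gave 37 of the 19752 genes measured, each through its brightest probe set with a single symbol. Of these, 31 encode subunits of the common particle: 7 of the 20S alpha ring (Psma1 to Psma7), 7 of the 20S beta ring (Psmb1 to Psmb7), 6 ATPases of the 19S cap (Psmc1 to Psmc6) and 11 non-ATPase subunits of the 19S cap. The symbol rule also gave the testis form Psma8, the thymus form Psmb11, the chaperones Psmd5, Psmd9 and Psmd10, which help assemble the 19S cap, and Psmc3ip, which is no subunit and acts in meiotic recombination.

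NK cells were enriched by negative selection from spleens of 6 weeks old male C57BL/6 mice, and total RNA of 19 samples was hybridised to Affymetrix Mouse Gene 1.0 ST arrays. IL-2 at 250 U/ml for 8 h gave 4 samples, and untreated cells gave 3. The JAK3 inhibitor, given with IL-2, was used at 0.25, 1 and 4 µM (2 samples per dose). The JAK1 inhibitor, also given with IL-2, was used at 0.0625 µM (1 sample), 0.25 and 1 µM (2 each) and 4 µM (1 sample). Untreated replicate 2 has no time in its label. All samples share the same strain, sex and age and carry no genetic change, and the inhibitors are known here only by a number in the titles, 6226 for JAK3 and 3404 for JAK1. Whether samples came from separate mice or cultures is not in the labels, so a p-value covers the spread between these samples alone, and that spread may be technical.

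The proteasome is the large protease that degrades proteins tagged with ubiquitin. Its 20S core is a stack of alpha rings, which gate the entry, around beta rings, which hold the proteolytic sites; the 19S cap recognises, unfolds and feeds in the substrate. In activated lymphocytes, interferon-induced beta subunits can replace the catalytic ones to form the immunoproteasome.

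The deposited intensities lie on 2 scales, with array medians of 5.70 to 5.90 on the log2 scale in 12 samples (the low-intensity set) and 7.49 to 7.59 in 7 samples (the high-intensity set). The fit (limma) therefore held a term for the set, and the levels below are log2 intensities with that term removed (scale-adjusted). IL-2 replicates 1 and 2 and untreated replicate 2 are in the high-intensity set, and the samples at 4 and 0.0625 µM are all in the low-intensity set. The IL-2 response genes Cish and Myc were higher with IL-2 by 2.10 ± 0.14 and 2.32 ± 0.19 (log2 change ± SE). NK cell markers were higher with IL-2 in 8 of 10 genes, and macrophage and monocyte markers lower in 6 of 8. The median level of those 8 macrophage and monocyte genes was 6.84 to 7.38 in IL-2 samples and 8.52 to 8.93 in untreated samples. Neutrophil markers were lower in 6 of 10 genes, B cell markers in 3 of 9, and 0 of 10 T cell markers passed the test. The part of these cell differences in the proteasome values was not tested, and in such bulk samples fewer cells of a type and less RNA per cell cannot be told apart. Levels of different genes are not compared with each other, since probes differ in brightness.

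IL-2 raised 11 of the 37 proteasome genes and lowered none (limma, Benjamini-Hochberg adjusted p under 0.05 over all 19752 genes). Over all genes measured, 6.56% were called higher and 2.59% lower. The members' median log2 change was 0.41, against -0.01 over all genes, and 35 of 37 values were positive. All 31 subunits of the common particle had positive values, from 0.09 to 0.74, with a median of 0.46. The rise was small in size: the largest, Psmd6, was 1.67-fold. Every IL-2 sample lay above every untreated sample for 11 members, against 10.4% of all genes. At an unadjusted p under 0.05, 21 members differed (56.8%), against 19.1% of all genes.

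**Figure D1:**
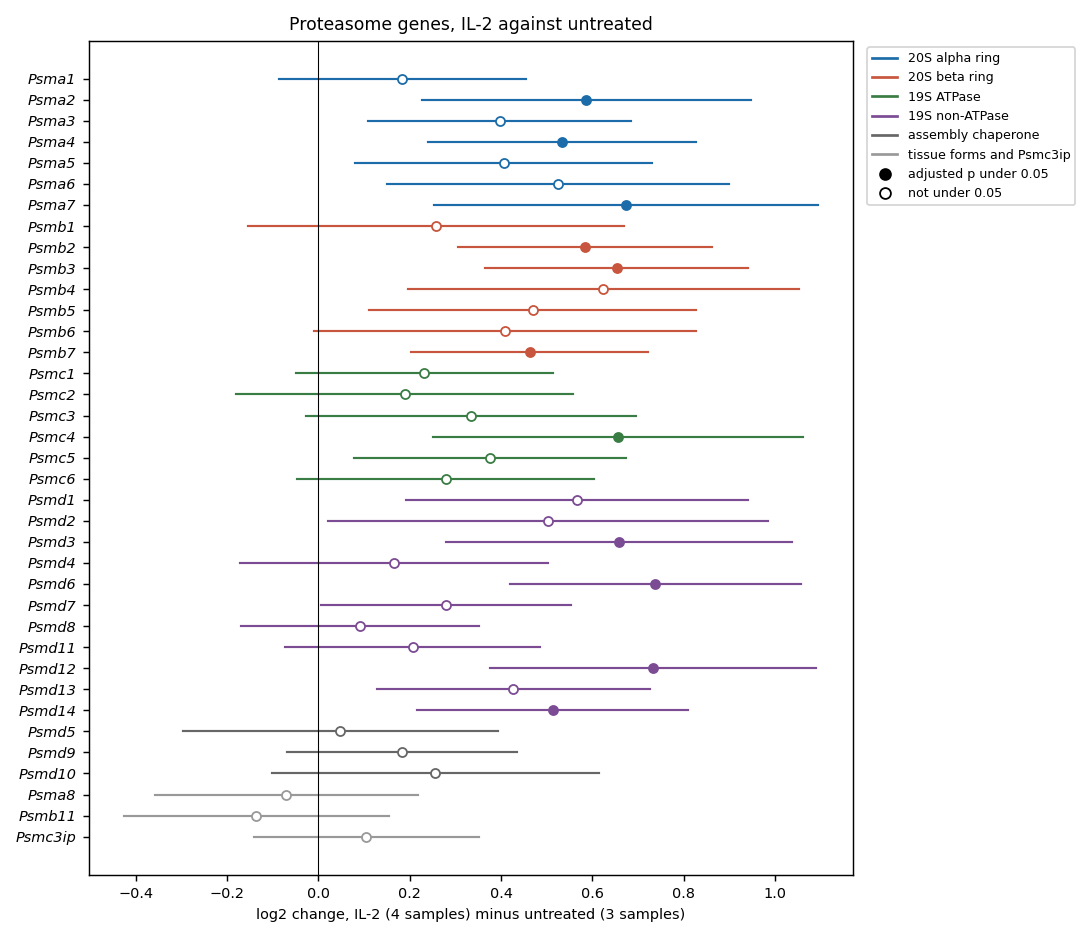
Log2 change of each of the 37 genes, IL-2 (4 samples) minus untreated (3 samples), with 95% intervals from limma; colours give the class and filled points the 11 genes with an adjusted p under 0.05. All 31 subunit genes lie right of 0, and Psmd6 is the highest at 0.74.

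In the 20S alpha ring, 3 of 7 genes rose (median 0.52). Psma4 had 7.87, 8.12, 8.25 and 8.30 in IL-2 samples, against 7.79, 7.45 and 7.57 in untreated samples. Every IL-2 sample was above every untreated one, and the difference was 0.53 ± 0.14 (adjusted p = 0.0178). Psma2 had 7.37, 7.96, 7.80 and 7.94 with IL-2, against 7.56, 6.99 and 6.99 untreated. IL-2 replicate 1 overlapped with untreated replicate 2, and the difference was 0.59 ± 0.17 (adjusted p = 0.0361). Psma7 rose by 0.67 ± 0.20 (adjusted p = 0.0391), with no overlap between the groups. Psma1 had the weakest evidence of the ring, with 8.81, 8.99, 9.01 and 8.98 in IL-2 samples and 8.85, 8.83 and 8.62 in untreated samples. Its groups overlapped through IL-2 replicate 1, and its change of 0.18 did not pass (adjusted p = 0.511).

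In the 20S beta ring, 3 of 7 genes rose (median 0.47). Psmb3, a structural subunit without a proteolytic site, had 11.52, 11.51, 11.43 and 11.41 in IL-2 samples, against 10.85, 10.59 and 10.997 in untreated samples. The 4 IL-2 samples lay close together above all untreated ones, and the difference was 0.65 ± 0.14 (adjusted p = 0.00321). A second probe set assigned to Psmb3, not used here, gave an IL-2 minus untreated difference of 0.13 in the low-intensity set, against 0.62 for the probe set used. Psmb2, likewise without a proteolytic site, had 9.50, 9.62, 9.70 and 9.66 with IL-2, against 9.28, 8.77 and 9.06 untreated. The groups did not overlap, and the difference was 0.58 ± 0.13 (adjusted p = 0.00605). Psmb1 had 7.47, 7.99, 7.89 and 8.06 with IL-2 and 7.91, 7.53 and 7.34 untreated. IL-2 replicate 1 lay below untreated replicates 2 and 3, and the change of 0.26 did not pass (adjusted p = 0.558).

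The 3 catalytic genes of the constitutive core are Psmb5 (chymotrypsin-like site), Psmb6 (caspase-like site) and Psmb7 (trypsin-like site). Psmb7 had 8.21, 8.47, 8.48 and 8.33 in IL-2 samples, against 7.96, 7.78 and 7.99 in untreated samples. It rose by 0.46 ± 0.12 without overlap (adjusted p = 0.0200). Psmb5 had 10.67, 10.89, 10.77 and 10.80 with IL-2, against 10.53, 9.91 and 10.50 untreated. Its groups did not overlap either, but the change of 0.47 ± 0.17 did not pass the test over all genes (adjusted p = 0.107). Psmb6 had 7.83, 8.27, 8.22 and 8.30 with IL-2, against 8.19, 7.28 and 7.77 untreated, groups that overlapped, and a change of 0.41 (adjusted p = 0.275). Their interferon-induced counterparts Psmb8, Psmb9 and Psmb10 all rose, by 0.91 ± 0.17, 0.99 ± 0.17 and 0.85 ± 0.14 (adjusted p = 0.00124, 0.000571 and 0.000267).

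Of the 6 ATPases, which unfold substrates at the base of the 19S cap, only Psmc4 rose. It had 8.36, 8.72, 8.71 and 8.87 in IL-2 samples, against 8.38, 7.55 and 8.11 in untreated samples. IL-2 replicate 1 fell just under untreated replicate 2, and the difference was 0.66 ± 0.19 (adjusted p = 0.0371). Psmc5 had 6.07, 6.47, 6.21 and 6.46 with IL-2 and 6.12, 5.96 and 5.71 untreated. Its change of 0.38 did not pass (adjusted p = 0.126). Psmc2 had 6.16, 6.69, 6.61 and 6.83 with IL-2 and 6.46, 6.66 and 6.02 untreated, which overlapped, and its change was 0.19 (adjusted p = 0.655). The median over the ATPases was 0.31.

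Of the 11 non-ATPase subunits of the 19S cap, 4 rose: Psmd3, Psmd6, Psmd12 and Psmd14 (class median 0.50). All 4 belong to the lid, the part of the cap in which ubiquitin chains are removed, and Psmd14 is the deubiquitinase itself. Not all lid genes of the class were called, Psmd8 among those that were not. Psmd1 came close to the threshold, with 0.57 ± 0.18 (adjusted p = 0.0533) and no overlap between the groups. Psmd6 had 7.44, 7.83, 7.80 and 7.95 in IL-2 samples, against 7.34, 6.83 and 6.89 in untreated samples. No samples overlapped, and the difference was 0.74 ± 0.15 (adjusted p = 0.00263). Psmd12 had 7.43, 8.02, 7.88 and 8.04 with IL-2, against 7.46, 6.75 and 7.11 untreated. Only IL-2 replicate 1 and untreated replicate 2 overlapped, and the difference was 0.73 ± 0.17 (adjusted p = 0.00725). Psmd14 had 8.85, 8.95, 9.03 and 9.13 with IL-2, against 8.54, 8.70 and 8.19 untreated. It did not overlap and rose by 0.51 ± 0.14 (adjusted p = 0.0247). Psmd3 rose by 0.66 ± 0.18 (adjusted p = 0.0242). Psmd8, also a lid subunit, had 8.65, 8.85, 8.81 and 8.74 with IL-2 and 8.84, 8.61 and 8.56 untreated, with overlap and a change of 0.09 (adjusted p = 0.792).

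The members that are no subunit of the common particle stayed outside the calls. The chaperones Psmd5, Psmd9 and Psmd10 had changes from 0.05 to 0.26, of which 0 of 3 passed. The thymus form Psmb11 had 5.63, 5.22, 5.31 and 5.07 in IL-2 samples and 5.24, 5.38 and 5.70 in untreated samples. The testis form Psma8 had 4.34, 4.11, 3.99 and 4.40 with IL-2 and 4.17, 4.15 and 4.52 untreated. Both had overlapping groups and negative values, -0.14 for Psmb11 and -0.07 for Psma8. Psmc3ip had 5.50, 5.50, 5.56 and 5.48 with IL-2 and 5.50, 5.38 and 5.33 untreated, a change of 0.10 (adjusted p = 0.728).

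**Figure D2:**
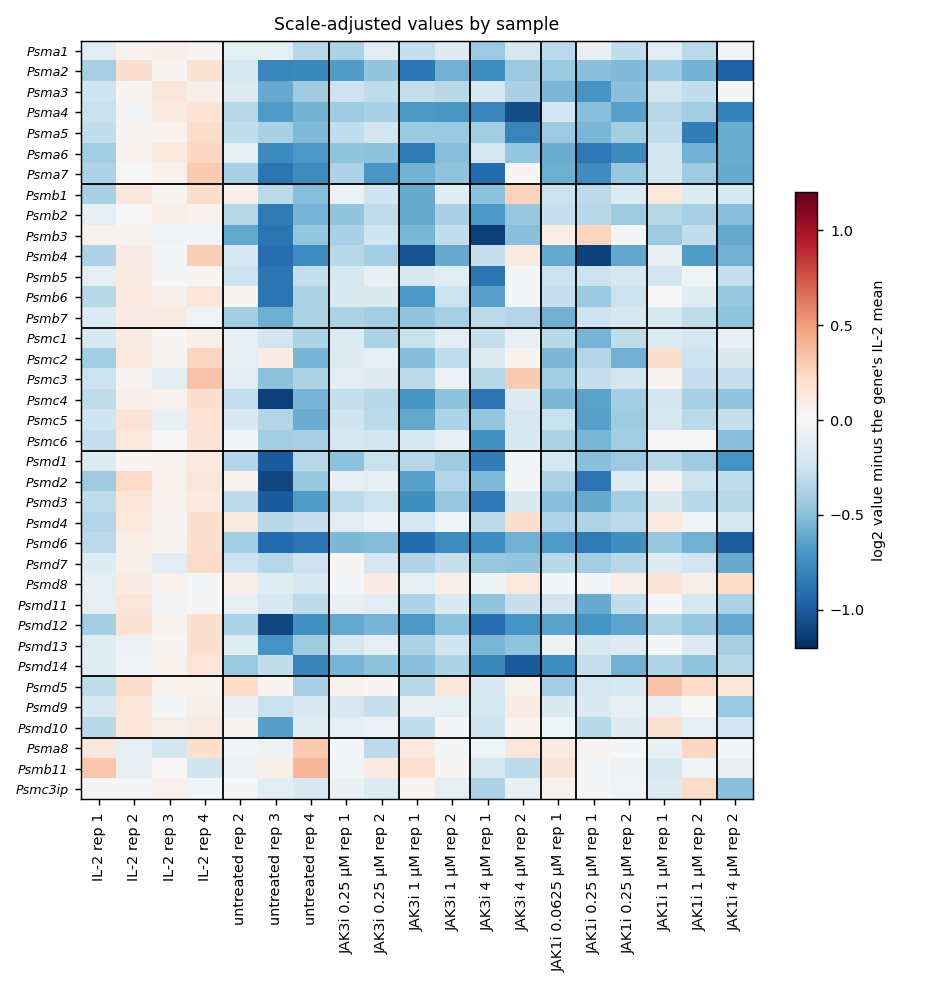
Scale-adjusted log2 value of each gene in each of the 19 samples minus the mean of its 4 IL-2 samples, with genes in rows by class and samples in columns by group. IL-2 replicate 1 is bluer than the other IL-2 samples in most rows, and the rows of Psma8, Psmb11 and Psmc3ip show no common shift.

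A pair of samples from the high-intensity set stood apart within their groups. IL-2 replicate 1 was the lowest IL-2 sample for 30 of 31 subunit genes, and untreated replicate 2 the highest untreated sample for 25 of 31. Relative to the IL-2 mean, the median of the 31 subunits was -0.27, 0.09, 0.04 and 0.16 in IL-2 replicates 1 to 4, and -0.20, -0.68 and -0.47 in untreated replicates 2, 3 and 4. Without untreated replicate 2, IL-2 raised 20 members, and without IL-2 replicate 1 it raised 16. The calls over all genes, in either direction, moved too, to 3069 and 2037 in these fits, against 1808 with all samples. Without any other single sample the count was between 4 and 6, with 1210 to 1622 genes called in all. Psmb2, Psmb3, Psmd6 and Psmd12 kept their calls in all 7 fits that left out 1 sample, with adjusted p-values up to 0.0439.

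The members' median change with IL-2 was 0.58 within the low-intensity set (2 samples against 2) and 0.07 within the high-intensity set (2 against 1). Within the low-intensity set 35 of 37 values were positive and 5 members passed, against 4.87% of all genes. Within the high-intensity set 27 were positive. That fit had 1 residual degree of freedom and called 0 of 19752 genes, so its count of 0 members says nothing about them (at an unadjusted p under 0.05 it had 1 member and 6.40% of all genes). Psmb3 was nearly the same in both, at 0.62 in the low-intensity and 0.66 in the high-intensity set. Psmd12 had 1.03 and 0.26, and Psma6 had 0.91 and -0.07. A test of the difference between the sets called 0 members and 0 genes in all (limma, 3 residual degrees of freedom), with 10 members and 14.9% of all genes at an unadjusted p under 0.05. The culture time of the 1 untreated sample in the high-intensity set is the one missing from the labels, so time and set cannot be told apart there.

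**Figure D3:**
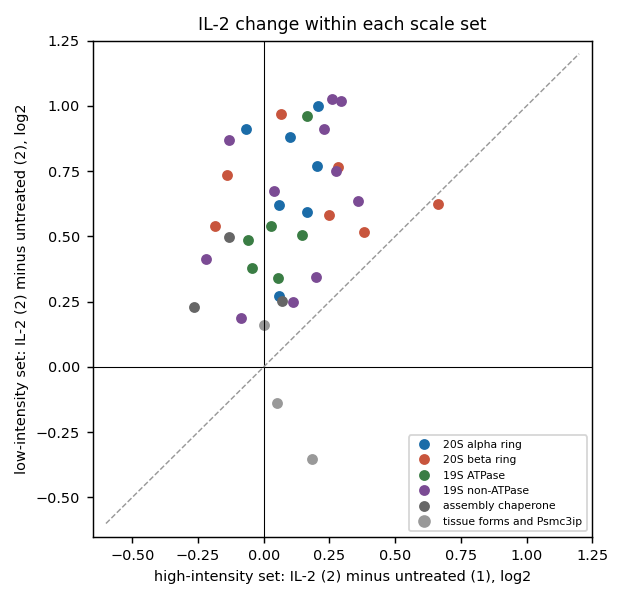
Log2 change with IL-2 minus untreated in the high-intensity set (horizontal, 2 samples against 1) and in the low-intensity set (vertical, 2 against 2), 1 point per gene; the dashed line marks equal values. All 31 subunit genes but Psmb3 lie above the line.

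Promoters were read to set the sequences beside these responses: windows from 250 bases before to 50 bases after the start of each gene, from RefSeq (GRCm38.p6), were found for 30 of 37 members. The core TGACNNNGC of the antioxidant response element, to which the proteasome gene activator NRF1 binds, was searched on both strands and occurred in 5 of 30 members (16.7%), against 13.99% of 27025 genes with a window. The E-box CACGTG, bound by MYC, was found in 2 members (6.67%, against 8.09%), and the STAT element TTCNNNGAA in 1 (3.33%, against 9.55%). Psmd12 and Psmb5 are printed as the members with TGACNNNGC that had the smallest p with IL-2, and Psmd5 as the member with a window that had the largest p. The Psmd12 window is at chr11:107479278-107479577 (plus strand), with its match on the reverse strand 247 bases before the start. The Psmb5 window is at chr14:54617946-54618245 (minus strand), with its match on the forward strand 47 bases before the start. The Psmd5 window is at chr2:34870913-34871212 (minus strand) and holds none of these motifs. Capitals mark the match to TGACNNNGC, and each line runs 5′ to 3′.
Psmd12: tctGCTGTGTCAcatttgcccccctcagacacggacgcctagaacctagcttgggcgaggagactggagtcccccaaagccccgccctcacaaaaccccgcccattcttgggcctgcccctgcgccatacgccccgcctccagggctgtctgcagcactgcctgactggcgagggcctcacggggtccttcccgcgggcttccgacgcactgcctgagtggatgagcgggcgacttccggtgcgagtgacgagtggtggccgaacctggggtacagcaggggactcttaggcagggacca
Psmb5: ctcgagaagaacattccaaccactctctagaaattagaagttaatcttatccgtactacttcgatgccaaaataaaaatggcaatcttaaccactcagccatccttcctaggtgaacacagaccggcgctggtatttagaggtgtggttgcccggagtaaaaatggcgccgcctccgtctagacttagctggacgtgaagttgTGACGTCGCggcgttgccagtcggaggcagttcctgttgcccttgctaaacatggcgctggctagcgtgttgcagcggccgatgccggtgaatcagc
Psmd5: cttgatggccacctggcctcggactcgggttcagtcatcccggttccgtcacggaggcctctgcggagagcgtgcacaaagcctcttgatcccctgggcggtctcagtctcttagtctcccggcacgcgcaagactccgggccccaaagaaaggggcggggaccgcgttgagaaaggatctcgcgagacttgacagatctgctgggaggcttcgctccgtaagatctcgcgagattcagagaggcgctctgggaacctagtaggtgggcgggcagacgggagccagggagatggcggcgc

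With the JAK3 inhibitor beside IL-2, the number of proteasome genes called lower than with IL-2 alone was 0 at 0.25 µM, 5 at 1 µM and 7 at 4 µM, and none was called higher. Over all genes 2.26%, 3.69% and 4.50% were called lower at these doses, and 2.74%, 2.86% and 3.01% higher. The members' medians were -0.26, -0.39 and -0.33 (all genes 0.06, 0.02 and -0.04), with 34, 35 and 35 of 37 values negative. At 0.25 µM, 9 members (24.3%) had an unadjusted p under 0.05, against 13.0% of all genes. The smallest was that of Psmd14, with a change of -0.53 ± 0.16 (adjusted p = 0.0666). Within the low-intensity set the medians were -0.30, -0.36 and -0.40, and within the high-intensity set -0.16 at 0.25 µM and -0.37 at 1 µM. At 4 µM the low-intensity set called 1 member (Psma4), against 3.23% of all genes. At 0.25 and 1 µM each set holds 1 sample per dose, so no conclusion about the members is drawn from counts of calls there. The comparisons at the 3 doses share the 4 IL-2 samples with each other and with the comparison against untreated cells.

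At 1 µM JAK3 inhibitor, the genes that fell were Psma2, Psma4, Psma6, Psmb4 and Psmd6. Psmd6 had 6.83 and 6.995 with the inhibitor, against 7.44 to 7.95 with IL-2 alone. The groups did not overlap, and the change was -0.84 ± 0.17 (adjusted p = 0.00349). Psma4 had 7.45 and 7.44, against 7.87 to 8.30, a change of -0.69 ± 0.16 (adjusted p = 0.00839). Psmb4, which like Psmb2 and Psmb3 has no proteolytic site, had 7.59 and 8.02, against 8.26, 8.73, 8.61 and 8.92 with IL-2 alone, and fell by 0.82 (adjusted p = 0.0334). Psma2 had 6.89 and 7.19, against 7.37 to 7.96, and fell by 0.73 (adjusted p = 0.0263), again without overlap. Without IL-2 replicate 1 the count was 10, with 7.07% of all genes called in either direction, against 6.55% with all samples. Without IL-2 replicate 2, 3 or 4, Psma2, Psma6 and Psmb4 lost their calls (5.31%, 4.58% and 4.75% of all genes called). With replicate 1 at this dose left out, Psmd6 changed by -0.75 and Psmb4 by -0.57. That fit rests on a single sample at this dose, so only sizes are given and no call is read from it.

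At 4 µM JAK3 inhibitor, Psma4, Psma5, Psmb2, Psmb3, Psmd6, Psmd12 and Psmd14 fell. Psma4 had 7.35 and 7.07 with the inhibitor, both below the lowest IL-2 sample, 7.87. Its change of -0.93 ± 0.17 was 0.526-fold (adjusted p = 0.000889). Psmd14 had 8.22 and 7.98, against 8.85 to 9.13 with IL-2 alone, and a change of -0.89 ± 0.17 (adjusted p = 0.00143). Both kept their calls in each fit that left out 1 IL-2 sample. Psmb3 had 10.35 and 10.96, against 11.41 to 11.52, and fell by 0.81 (adjusted p = 0.00260). Psmd12 had 6.93 and 7.13, against 7.43 to 8.04, and fell by 0.81 (adjusted p = 0.0138). The samples at this dose differed: the median of the 31 subunits relative to the IL-2 mean was -0.53 in replicate 1 and -0.20 in replicate 2, and Psmb5 had 9.91 and 10.77. With replicate 1 at this dose left out, Psmb3 changed by -0.50, Psmd6 by -0.58 and Psmd12 by -0.71. With replicate 2 left out, Psma5 changed by -0.42, against -0.61 with both. Each of these fits rests on a single sample at this dose, so only sizes are given and no call is read from it.

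**Figure D4:**
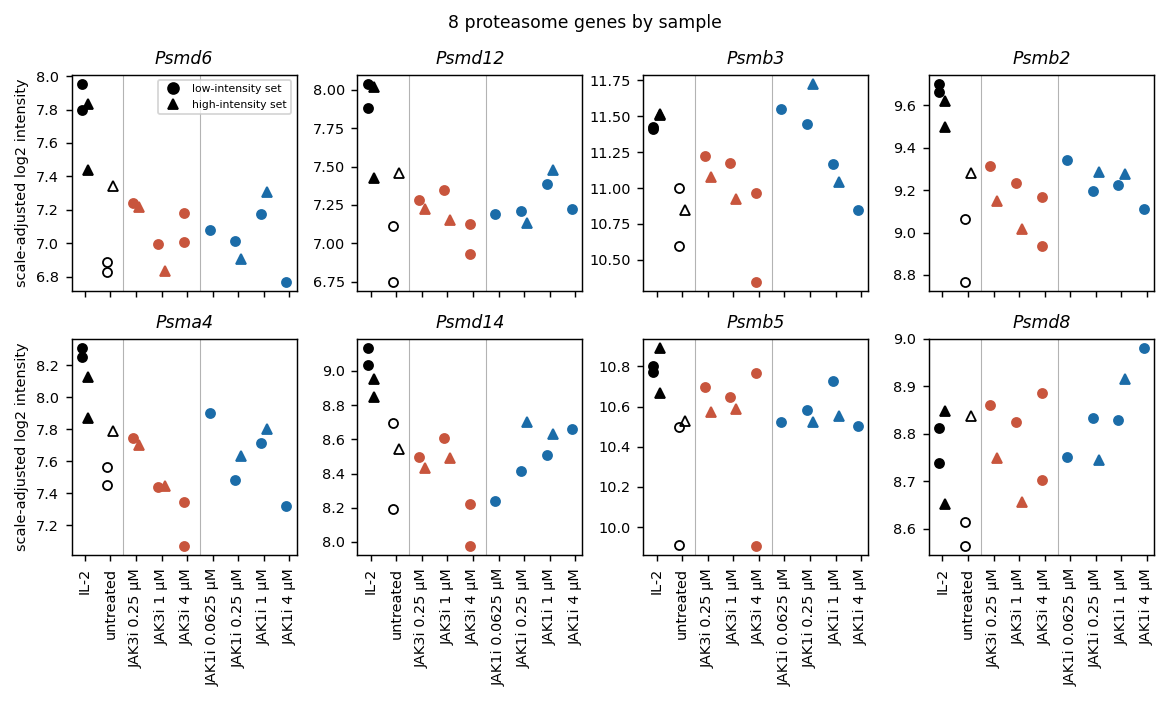
Scale-adjusted log2 intensity of 8 genes in every sample, with 1 panel per gene and groups along the horizontal axis; circles are the low-intensity and triangles the high-intensity set, open symbols untreated cells, and orange and blue the JAK3 and JAK1 inhibitor with IL-2. Psmd6, Psmb2 and Psmd14 lie below every IL-2 sample in all 12 inhibitor samples, and Psmd8 shows no such gap.

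With the JAK1 inhibitor beside IL-2, the number of members called lower was 0 at 0.0625 µM, 3 at 0.25 µM, 0 at 1 µM and 3 at 4 µM, and none was called higher. Over all genes 0.0152%, 1.52%, 2.31% and 2.63% were called lower, and 0.00506%, 0.729%, 2.85% and 1.14% higher. The members' medians were -0.33, -0.43, -0.19 and -0.40 (all genes 0.08, 0.05, 0.08 and -0.10), with 33, 34, 30 and 35 of 37 values negative. At an unadjusted p under 0.05 the counts were 6, 20, 8 and 14, against 12.3%, 12.2%, 13.9% and 15.4% of all genes (for the members 16.2%, 54.1%, 21.6% and 37.8%). For the single samples at 0.0625 and 4 µM, the spread of the other groups was assumed to hold. Within the low-intensity set the medians were -0.38, -0.38, -0.36 and -0.47, and within the high-intensity set -0.34 at 0.25 µM and -0.09 at 1 µM. Each set holds at most 1 sample per dose, so no conclusion about the members is drawn from counts of calls within a set. The medians did not follow the order of the doses, and no trend with dose was tested.

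At 0.25 µM JAK1 inhibitor, Psmd6 had 6.91 and 7.02, below every IL-2 sample (7.44 to 7.95), and changed by -0.79 ± 0.17 (adjusted p = 0.0160). Psma6 had 7.98 and 8.07, against 8.42, 8.88, 8.96 and 9.08 with IL-2 alone, and fell by 0.81 (adjusted p = 0.0387). Psma3 had 8.26 and 8.47, against 8.73, 8.997, 9.11 and 9.04, and fell by 0.61 (adjusted p = 0.0442). None of the 3 groups of values overlapped with those of IL-2 alone. Psmb3 did not lie below the IL-2 samples at this dose, with 11.72 and 11.44, against 11.41 to 11.52. The count at this dose was 7 without IL-2 replicate 1, with 3.66% of all genes called in either direction. It was 0 without IL-2 replicate 2, 3 or 4, with 1.19%, 1.07% and 1.09% of all genes called. With replicate 1 or 2 at this dose left out, Psmd6 changed by -0.73 and -0.86. At this dose 0 of 10 NK cell markers were called lower than with IL-2 alone, though 9 had negative values. Of 8 macrophage and monocyte markers 3 were called higher. With the same dose of JAK3 inhibitor these calls were 9 and 5.

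At 1 µM JAK1 inhibitor the smallest p was that of Psma5, with 7.11 and 6.58, against 7.11, 7.44, 7.45 and 7.63 with IL-2 alone, and a change of -0.56 ± 0.18 (adjusted p = 0.0776). At 4 µM the genes that fell were Psma2, Psma4 and Psmd6. Psmd6 had 6.77 in the single sample, the lowest value of all 19 samples, and a change of -0.99 ± 0.23 (adjusted p = 0.0147). Psma2 had 6.79, also the lowest of all samples, and fell by 0.98 (adjusted p = 0.0364). Psma4 had 7.32 and fell by 0.81 (adjusted p = 0.0322). Without IL-2 replicate 4 none of the 3 was called (2.53% of all genes called). Without IL-2 replicates 2 or 3 the count was 1 (3.08% and 2.50% of all genes).

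**Figure D5:**
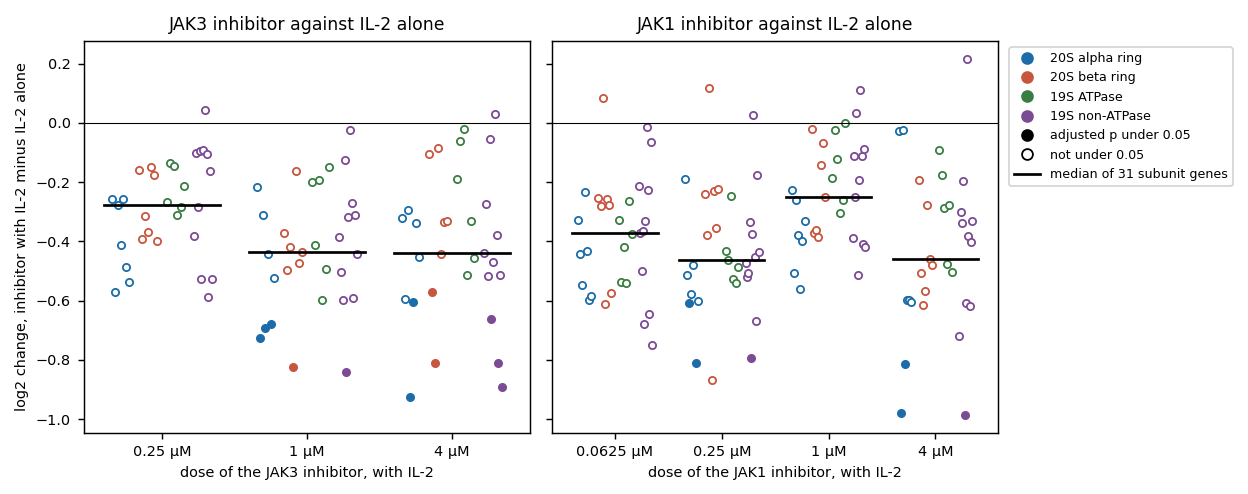
Log2 change of the 31 subunit genes with the JAK3 inhibitor (left) and the JAK1 inhibitor (right) beside IL-2, each minus IL-2 alone, by dose; filled points have an adjusted p under 0.05 and black lines are medians. The medians run from -0.28 to -0.44 with the JAK3 inhibitor and from -0.25 to -0.46 with the JAK1 inhibitor.

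Taking all 12 inhibitor samples at once, every one lay below every IL-2 sample for 5 members, Psma2, Psmb2, Psmb7, Psmd6 and Psmd14, against 2.65% of all genes. Psmd6 ran from 6.77 to 7.30 in inhibitor samples, against 7.44 to 7.95 in IL-2 samples. Psmd14 ran from 7.98 to 8.70, against 8.85 to 9.13. For Psmb2 the inhibitor samples had 8.93 to 9.34 and the IL-2 samples 9.50 to 9.70. Psmb7, the trypsin-like catalytic subunit, had 7.80 to 8.18 in inhibitor samples and 8.21 to 8.48 in IL-2 samples, a gap narrower than its spread within either group.

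The inhibitors were compared at the 3 doses they share, and 0 members were called at any of them (0.451%, 0% and 0% of all genes in either direction at 0.25, 1 and 4 µM). The members' medians, JAK1 inhibitor minus JAK3 inhibitor, were -0.15, 0.16 and -0.03. At 0.25 µM the smallest p was that of Psmb3, which was higher with the JAK1 inhibitor, at 11.72 and 11.44 against 11.08 and 11.23 with the JAK3 inhibitor. Its difference was 0.43, with a 95% interval of 0.06 to 0.81 (unadjusted p = 0.0260, adjusted p = 0.605). At 4 µM Psmd14 had 8.66 in the JAK1 inhibitor sample, against 8.22 and 7.98 in the JAK3 inhibitor samples. That difference was 0.56, with an interval of 0.09 to 1.03 (unadjusted p = 0.0230, adjusted p = 1.00). For Psmd6 the intervals of the difference were -0.68 to 0.15 at 0.25 µM, -0.09 to 0.74 at 1 µM and -0.83 to 0.18 at 4 µM. Intervals of this width do not show that the inhibitors act alike.

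At 4 µM, cells with IL-2 and inhibitor were also set against untreated cells. No member was called for either inhibitor, as for all genes (0% for each). The members' medians were 0.04 with the JAK3 inhibitor and 0.03 with the JAK1 inhibitor, with 4 members (10.8%) and 1 member (2.70%) at an unadjusted p under 0.05, against 8.68% and 6.43% of all genes. For Psma4, the JAK3 inhibitor samples had 7.35 and 7.07, against 7.79, 7.45 and 7.57 in untreated samples, a change of -0.39 (adjusted p = 0.551). For Psmb4 the value went the other way, with 8.35 and 8.74 in the JAK3 inhibitor samples, against 8.43, 7.72 and 7.88 untreated, and a change of 0.54 (adjusted p = 0.565).

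Other genes of the pathway were taken from lists. With IL-2, 4 of 5 genes for caps and inhibitors outside the 19S complex rose, among them Psme3 (0.86 ± 0.14, adjusted p = 0.000394) and Psme1 (0.90 ± 0.15, adjusted p = 0.000464), which encode rings that open the core without ubiquitin. Of the 5 assembly chaperones outside the symbol rule, 4 rose, among them Psmg2 (0.82 ± 0.16, adjusted p = 0.00161) and Pomp (0.70 ± 0.16, adjusted p = 0.00680), which build the 20S core. Of 12 measured proteasome-associated genes, 1 rose, the ubiquitin shuttle factor Rad23b (0.42 ± 0.12, adjusted p = 0.0361). In the NRF1 route 2 of 7 measured genes rose, the small Maf partners Maff (0.61 ± 0.13, adjusted p = 0.00267) and Mafk (0.87 ± 0.21, adjusted p = 0.00813). Nfe2l1, which encodes NRF1, had a change of 0.25 (adjusted p = 0.348). None of 3 measured genes for ubiquitin and its activation passed. All 3 immunoproteasome genes were lower with 4 µM of either inhibitor than with IL-2 alone. At 4 µM the JAK3 inhibitor lowered 3 of 5 cap genes and 2 of 5 chaperones outside the rule, and the JAK1 inhibitor 2 and 1.

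Cell type markers also moved with the inhibitors. At 0.25 µM JAK1 inhibitor, 3 proteasome genes were called lower and 0 of 10 NK cell markers. Of those markers, 9 had negative values and 3 an unadjusted p under 0.05 (limma). At that dose 3 of 8 macrophage and monocyte markers were higher. At 1 µM JAK1 inhibitor 0 proteasome genes were called. At 1 µM, NK cell markers were lower than with IL-2 alone in 9 of 10 genes with the JAK3 inhibitor and 7 with the JAK1 inhibitor, and at 4 µM in 6 with each. Macrophage and monocyte markers were higher in 6 of 8 genes at 1 µM and 5 at 4 µM, for either inhibitor. The median level of those 8 genes was 8.50 to 9.02 in the samples at 1 and 4 µM, against 6.84 to 7.38 in IL-2 samples. Their part in the proteasome values was not tested.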

How the data were processed

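RNA of 19 splenic NK cell samples was measured on Affymetrix Mouse Gene 1.0 ST arrays. The deposited values are linear intensity values, made by the authors with Affymetrix Power Tools and RMA, per the submitters' processing notes; no version or setting is given in the sources used here. In the table there were 24922 probe sets: 21425 had 1 symbol in the platform annotation, 1399 had several and 2098 were not listed there. The brightest probe set stood for each of 921 genes with several, 5 members included (Psma3, Psma5, Psmb3, Psmc1 and Psmd2). All 37 members matched RefSeq (GRCm38.p6).

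A single limma model (limma 3.58.1, R 4.3.3) was fitted to the log2 values of the 19 samples (group means and a term for the intensity set, eBayes with trend; 9 residual and 10.5 prior degrees of freedom). The sets are the arrays on either side of the widest gap between array medians, and the term had a median of 1.64 over all genes. The Benjamini-Hochberg adjustment covered 19752 genes, and every adjusted p of a gene is from limma. No detection values were given, so signal over background is unknown, and precision is limited by how few arrays there are. Of the members, 3 had a value shared by at least 3 samples of the high-intensity set, and 0 in the low-intensity set. Replicates of a group correlated at 0.962 to 0.994, and no arrays were identical.

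Genes with values in every sample are, per class, the 2 with the smallest and the 1 with the largest p with IL-2, the catalytic and tissue-restricted genes, Psmc3ip, and members with the smallest p of the other comparisons; of other lists, the 2 smallest p. Psmd3, Psma7 and Nfe2l1 were named beside them. The comparison of all inhibitor samples at once with IL-2 was added after the values had been seen. Members, lists and tests were chosen with earlier results of these data known. The fit was tested on simulated data. Other normalizations, set terms, probe rules and left-out samples were tried as alternatives.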

Additional observations from a re-analysis of the deposited data

Results flagged for a closer look

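IL-2 replicate 1 was far from the other 3 IL-2 samples for 2 of the 37 members by Dixon's test within the 4 IL-2 samples (95% level). Psma1 had 8.81 in that sample, with a gap of 0.848 of the group's range, and Psmd10 had 7.51, with a gap of 0.862. Chance flags about 1 in 20 such groups, and 37 were tested.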

How the results depend on the processing

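With quantile normalization the members called lower than with IL-2 were 5, 12 and 11 for the JAK3 inhibitor at 0.25, 1 and 4 µM, and 10 and 4 for the JAK1 inhibitor at 0.25 and 1 µM. Calls over all genes in either direction moved with them, to 1785, 2163 and 2588 for the JAK3 inhibitor (987, 1293 and 1483 as reported). For the JAK1 inhibitor at 0.25 and 1 µM they moved to 1202 and 1818 (445 and 1019 as reported). With array medians centred, the members called were 3 and 4 (JAK3 inhibitor, 1 and 4 µM) and 1 and 1 (JAK1 inhibitor, 0.25 and 4 µM). Over all genes 1203, 1466, 376 and 631 were then called in the same comparisons. With a term for the title form in place of the intensity set, 0 members were called with IL-2 (1.36% of all genes). The JAK3 inhibitor gave 0 and 27 at 1 and 4 µM (0.856% and 45.1% of all genes), and 2 at 4 µM against untreated cells (11.1%). The JAK1 inhibitor gave 0 and 0 at 0.25 and 4 µM (0.127% and 0.567%). By construction the title form term leaves replicate 1 at 4 µM JAK3 inhibitor on the other scale. The low-intensity set alone gave 5 with IL-2, 0 and 1 (JAK3 inhibitor, 1 and 4 µM), and 0 and 0 (JAK1 inhibitor, 0.25 and 4 µM), and the high-intensity set alone gave 0 with IL-2, with 1 µM JAK3 inhibitor and with 0.25 µM JAK1 inhibitor; both have fewer samples. The high-intensity set holds no sample at 4 or 0.0625 µM, so those fits could not be made. For the other changes the cause was not tested. With the replicate number as a block, 22 members were called with IL-2 (3233 genes in all, against 1808). The count was 0 at 1 and 4 µM JAK3 inhibitor and at 0.25 and 4 µM JAK1 inhibitor. Over all genes 4.30%, 2.92%, 0.678% and 2.05% were called in those inhibitor comparisons. Whether the replicate numbers pair the samples is not in the labels. Residuals within a set correlated at -0.54 to 0.60 for same-numbered samples (29 pairs) and at -0.81 to 0.50 for the others (54 pairs). In groups of 1 or 2 samples the fit itself constrains the residuals, so these correlations cannot decide whether samples are paired.

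Leaving out 1 sample gave 4 to 20 members with IL-2, 0 to 3, 0 to 10 and 3 to 12 for the JAK3 inhibitor at 0.25, 1 and 4 µM, and 0 to 7, 0 to 3 and 0 to 3 for the JAK1 inhibitor at 0.25, 1 and 4 µM. In the left-out fits for IL-2 against untreated cells, 6.13% to 15.5% of all genes were called. With 1 IL-2 sample left out, the shares for the JAK3 inhibitor were 3.39% to 5.23%, 4.58% to 7.07% and 5.06% to 7.61% at these doses. For the JAK1 inhibitor they were 1.07% to 3.66%, 3.45% to 5.05% and 2.50% to 4.20%. Leaving out the dimmest 25% of genes, or averaging probe sets, left each count within 1.5 times its value. Of 401 values of called members under an alternative, 217 kept their call, 184 lost it and 0 changed sign. The members' median kept its sign in all fits for IL-2 (0.07 to 0.58) and for each inhibitor dose against IL-2 except 0.0625 µM of the JAK1 inhibitor (0.22 with the block). Its size did not hold: at 4 µM JAK3 inhibitor it was between -1.12 (title form term) and -0.0020 (block), and at 1 µM JAK1 inhibitor between -0.36 (low-intensity set) and -0.04 (block). It changed sign in some fits for the inhibitors against each other at 4 µM and for either inhibitor at 4 µM against untreated cells.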
